A study of Mus musculus with 2 samples.

Results

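The genes described here encode transcription factors of the MEF2 and CREB families, 3 of their coactivators and the related factor SRF. There were 10 of them, Mef2a, Mef2b, Mef2c, Mef2d, Creb1, Atf1, Crtc1, Crtc2, Crebbp and Srf, out of 55536 annotated genes, and they were found by gene name in the gene table and in both transcript tables of each library. They were measured by total RNA sequencing of hippocampus, labelled as a layer of it, from female B6CASTF1/J mice (a C57BL/6J by CAST/EiJ hybrid) aged 36 days. The design held 1 group of 2 libraries, biological replicates 1 and 2, each made from 300 ng of RNA with ERCC spike-in RNAs added. No genotype, treatment or time was compared, and both libraries carry the same donor identifier, so the spread between them may in part be technical.

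MEF2 proteins bind an A/T-rich DNA element through a MADS domain, a DNA-binding fold that SRF shares, and in neurons they are known for limiting excitatory synapse number when activity raises calcium. CREB1 and ATF1 are basic leucine zipper proteins that bind the cyclic AMP response element. Phosphorylated CREB1 recruits the acetyltransferase CREBBP, and the calcium-regulated coactivators CRTC1 and CRTC2 bind its leucine zipper. In the hippocampus this pathway is known for the transcription that long-term memory requires.

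The MEF2 genes carry a pair of neighbouring coding exons of which an mRNA holds one or the other, known in the family as the alpha exons, and a short exon known as the beta exon that an mRNA holds or skips. The second exon of the pair is known for its use in striated muscle, and the beta exon for its use in brain and muscle. The first exon of the pair and the beta exon are shown because the transcript values below turn on them. The first exon of the pair lies in Mef2a at chr7:67268269-67268400 on the minus strand, in Mef2c at chr13:83625265-83625408 on the plus strand and in Mef2d at chr3:88158034-88158171 on the plus strand (mm10). Its sequence is given 5′ to 3′, with the bases that all 3 genes share in an alignment of these exons in capitals.
Mef2a first exon: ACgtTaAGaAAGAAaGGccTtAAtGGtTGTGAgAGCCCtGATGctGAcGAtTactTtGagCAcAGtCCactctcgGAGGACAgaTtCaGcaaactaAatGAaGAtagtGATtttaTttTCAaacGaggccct
Mef2c first exon: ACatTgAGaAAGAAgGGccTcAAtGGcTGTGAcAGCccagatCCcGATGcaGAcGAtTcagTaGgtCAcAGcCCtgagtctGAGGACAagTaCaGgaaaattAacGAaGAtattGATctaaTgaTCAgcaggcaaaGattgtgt
Mef2d first exon: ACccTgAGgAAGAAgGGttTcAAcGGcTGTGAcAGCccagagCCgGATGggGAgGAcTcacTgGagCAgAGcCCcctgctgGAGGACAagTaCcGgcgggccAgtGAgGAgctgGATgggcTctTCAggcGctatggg
Of the 144 alignment columns of the first exons, 67 were identical in all 3 genes. Mef2a and Mef2c were the closest, at 70.5% identity of aligned bases, followed by Mef2c and Mef2d at 64.5% and Mef2a and Mef2d at 56.8%. The second exon of the pair lies at chr13:83625470-83625607 in Mef2c and at chr3:88158221-88158355 in Mef2d.

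The beta exon is 24 bases long in Mef2a (chr7:67244521-67244544) and Mef2c (chr13:83654598-83654621) and 21 bases long in Mef2d (chr3:88161781-88161801). Here the exon is in capitals and the 15 bases of the neighbouring exons that the spliced transcript joins to it on each side are in lower case.
Mef2a beta exon: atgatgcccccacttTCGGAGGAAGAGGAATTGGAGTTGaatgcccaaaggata
Mef2c beta exon: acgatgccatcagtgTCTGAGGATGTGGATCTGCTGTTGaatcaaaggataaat
Mef2d beta exon: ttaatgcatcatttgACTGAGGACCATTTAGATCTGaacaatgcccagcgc
Creb1 has an alternative exon of 42 bases at chr1:64559727-64559768 on the plus strand, whose presence distinguishes the alpha form of CREB1 from the delta form. It is shown in the same way.
Creb1 alpha exon: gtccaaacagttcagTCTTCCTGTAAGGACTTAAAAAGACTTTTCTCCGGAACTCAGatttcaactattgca
The length of each exon shown is a multiple of 3, so holding or skipping it leaves the reading frame unchanged.

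Replicates 1 and 2 held 32443497 and 30125183 expected counts, spike-ins included, of which spike-ins took 0.445% and 0.380%. The libraries differed by more than sampling noise (chi-square of 11.6 per degree of freedom over genes), so they were not copies of one library. All 6 markers of the hippocampal subfields were detected, and the median level of the 4 excitatory neuron markers was 307 ± 18.4 TPM (abundance relative to all RNA of the library and corrected for length; mean ± SD over n = 2 libraries here and below). The oligodendrocyte markers summed to 1330 TPM in replicate 1 and 1007 TPM in replicate 2. The 5 markers of the choroid plexus, the tissue that secretes cerebrospinal fluid, summed to 25.2 and 1272 TPM, none was at 0, and all 4 that were compared were over 2-fold higher in replicate 2. The 3 meningeal markers summed to 45.3 and 92.9 TPM. Of 4 B cell markers, listed because B cells are known for Mef2b, none was detected, and of 4 skeletal and heart muscle markers 1 was.

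Detection was set at a minimum of 1 TPM in each library. By this rule 9 of the 10 genes were detected, Mef2b being the exception, against 57.6% of all protein-coding genes. Mef2d was the most abundant, and the 9 spanned from 8.29 to 76.1 TPM, where the median detected protein-coding gene was at 14.7 TPM. Because reads come from whole tissue, fewer cells that express a gene and less of its RNA per cell cannot be told apart.

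Among the MEF2 genes, Mef2d (chr3:88142372-88172086) was at 76.56 TPM in replicate 1 and 75.68 TPM in replicate 2, from 7467 and 6823 counts. Its mean of 76.1 ± 0.62 TPM was above that of 91.1% of detected protein-coding genes. Mef2a (chr7:67231163-67372858) was at 58.25 and 54.58 TPM, and Mef2c (chr13:83504034-83667080), whose loss in the brain is known to alter synapse number in the hippocampus, was at 41.99 and 42.90 TPM. The libraries did not overlap between any of these 3 genes, so their order of Mef2d, Mef2a and Mef2c was the same in both. Mef2b (chr8:70139711-70167488) was at 0.110 and 0.290 TPM, from 3 and 8 counts, in a range where counting error is large beside the value. Mef2d thus supplied 43.5% ± 0.25 of the summed TPM of the family, Mef2a 32.2% ± 1.03, Mef2c 24.2% ± 0.71 and Mef2b 0.115% ± 0.074.

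SRF, which binds the serum response element of immediate early and cytoskeletal genes, was encoded by RNA at 32.94 and 32.66 TPM (Srf, chr17:46548329-46556175), a mean of 32.8 ± 0.20 TPM. This was lower than Mef2c in both libraries and close to the coactivator gene Crebbp. Creb1 (chr1:64532645-64604548) was at 20.27 and 19.47 TPM, above 59.9% of detected protein-coding genes. Atf1 (chr15:100227819-100261244), which can pair with CREB1, was at 9.18 and 7.40 TPM and stood above 32.4% of detected protein-coding genes. Creb1 took 70.6% ± 2.57 of the TPM of the pair and exceeded Atf1 2.21-fold in replicate 1 and 2.63-fold in replicate 2. Atf1 was the only one of the 10 genes whose expected count was not whole (282 and 278.51), so it shared reads with another gene and its level is uncertain. The other 9 had whole counts in both libraries, as did 84.7% of detected protein-coding genes.

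The coactivators spanned the range. Crtc1 (chr8:70382355-70439579), the CRTC gene known for neuronal activity signalling to the nucleus, was at 72.41 and 72.25 TPM, a mean of 72.3 ± 0.11 TPM that ranked next below Mef2d. Crtc2 (chr3:90254163-90264125), known for its role in hepatic gluconeogenesis, was at 13.80 and 16.40 TPM. Crtc1 took 82.7% ± 1.76 of the TPM of both and exceeded Crtc2 5.25-fold and 4.41-fold in replicates 1 and 2. Crebbp (chr16:4081328-4213997) was at 30.94 and 34.48 TPM, a mean of 32.7 ± 2.50 TPM. The range of Crebbp over the libraries contained that of Srf, the only neighbours in the order of levels whose ranges overlapped. The deposited bounds on TPM, whose level of confidence is not given in the sources used here, were wider and also overlapped between Mef2d and Crtc1, between Creb1 and Crtc2 and between Crtc2 and Atf1.

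**Figure D1:**
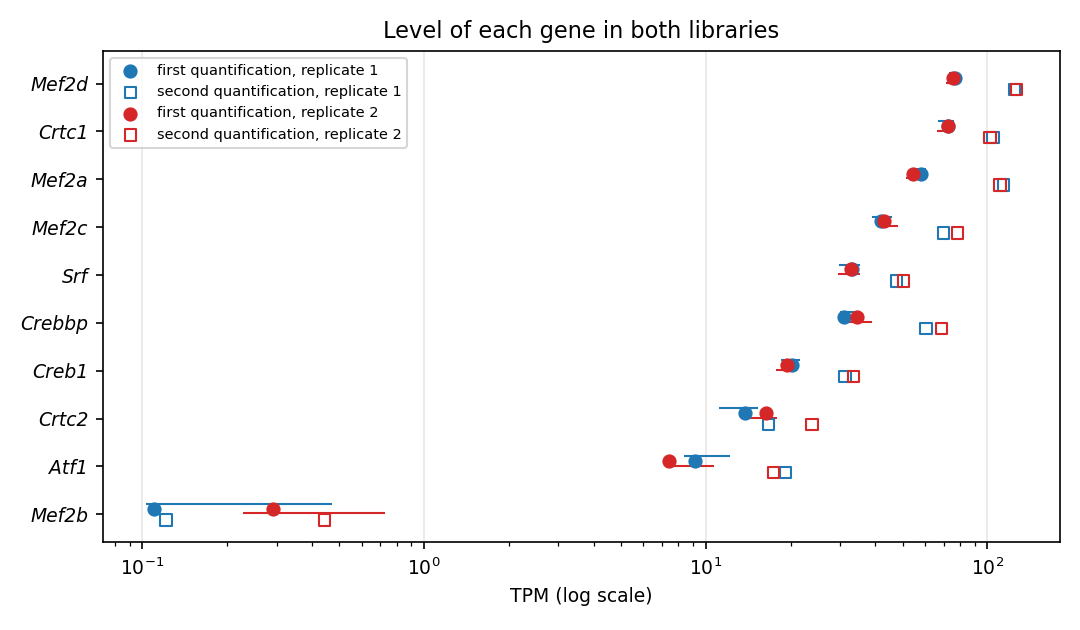
Level of each of the 10 genes in TPM on a log axis, with filled circles for the first quantification, open squares for the second, and horizontal lines for the deposited bounds of the first (blue, replicate 1; red, replicate 2). The libraries lie close together for the 9 detected genes, the second quantification is higher throughout, and Mef2b sits below 1 TPM.

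A second quantification of the same libraries, made from the reads rather than from a transcriptome alignment, gave higher TPM for each gene. Its mean was 126 TPM for Mef2d, 112 for Mef2a, 103 for Crtc1, 74.1 for Mef2c, 64.7 for Crebbp, 49.1 for Srf, 32.3 for Creb1, 20.3 for Crtc2, 18.3 for Atf1 and 0.282 for Mef2b. The ratio of the second to the first lay between 1.34 for Crtc2 and 2.21 for Atf1 among detected members, around the median of 1.71 over 12679 detected protein-coding genes. Of the 10 ranks, 6 were the same in both, since Crtc1 and Mef2a changed places, as did Srf and Crebbp. The order of Mef2d, Mef2a and Mef2c was the same, but Mef2d exceeded Mef2a 1.09-fold and 1.14-fold in the second quantification against 1.31-fold and 1.39-fold in the first. The excess of Creb1 over Atf1 was 1.62-fold and 1.92-fold, and that of Crtc1 over Crtc2 6.28-fold and 4.28-fold.

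Transcript use followed the MEF2 exons described at the outset. For each exon the TPM of annotated transcripts that hold it in full was divided by the TPM of those that hold it or its alternative. Transcripts that do not reach the exon, or that hold neither exon of a pair in full, were left out. In Mef2d the first exon of the pair was held by 99.2% of informative transcripts in replicate 1 and 99.2% in replicate 2, and the second exon by 0.827% and 0.754%. In Mef2c the first exon took 88.1% and 91.0%, and in Mef2a 85.6% and 87.5%. The first exon therefore prevailed in all 3 genes and in both libraries, and its rival, the exon known from striated muscle, was nearest to 0 in Mef2d. The second quantification gave 98.5% and 98.3% for Mef2d, 96.4% and 98.3% for Mef2c, and 84.3% and 85.9% for Mef2a. By this measure, which counts only transcripts that hold 1 exon of the pair in full, Mef2c lay near Mef2a in the first and near Mef2d in the second. The Mef2c share leaves out Mef2c-217 (6.18 and 7.74 TPM in the first), which skips the first exon of the pair and ends within the second. It also leaves out Mef2c-216 (3.5 and 1.72 TPM), which ends within the first exon, and Mef2c-219 (4.19 and 3.66 TPM), which holds neither in full. Counted were 21.4 and 23.23 TPM for the first exon and 2.9 and 2.31 TPM for the second, so this share is uncertain.

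The beta exon separated Mef2d from the other genes. Mef2a transcripts held it at 81.6% and 81.3% in replicates 1 and 2, and Mef2c transcripts at 83.2% and 84.4%. Mef2d transcripts held it at 13.5% and 16.0%. The values of Mef2d did not overlap with those of Mef2a or Mef2c in either quantification, the second giving 15.03% and 17.2% for Mef2d, 82.6% in both libraries for Mef2a, and 91.3% and 93.1% for Mef2c. The transcript with the highest TPM of Mef2d, Mef2d-201, holds the first exon of the pair and skips the beta exon, while those of Mef2a and Mef2c, Mef2a-208 and Mef2c-212, hold both. A single annotated transcript, Mef2d-203, carries the Mef2d beta exon, at 10.15 and 11.64 TPM.

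In Creb1 the 42-base exon was held by 44.3% and 35.9% of informative transcripts in the first quantification, against 21.3% and 26.0% in the second. Transcripts without it were in the majority in each of these 4 values, but the replicates differed in opposite directions in the 2 quantifications. Those transcripts include Creb1-205 and Creb1-210, which are not annotated as protein coding. They also include Creb1-203, which has 7 exons against 8 in Creb1-202. The majority is therefore one of transcripts without the exon, and the share of the delta form itself was not measured. In Crebbp an exon of 114 bases (chr16:4137366-4137479), within the region that encodes the TAZ1 zinc-binding domain, distinguishes the transcripts Crebbp-201 and Crebbp-205. It was held by 83.3% and 79.6% in the first against 57.9% and 56.6% in the second, so that its share depended on the quantification by more than the spread between libraries. In Srf an exon of 192 bases (chr17:46549845-46550036), whose skipping gives a known shorter SRF form, was held by 85.4% and 88.4%. The second quantification listed the skipping transcript Srf-202, a partial model of 376 bases, at 0 TPM in both libraries.

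**Figure D2:**
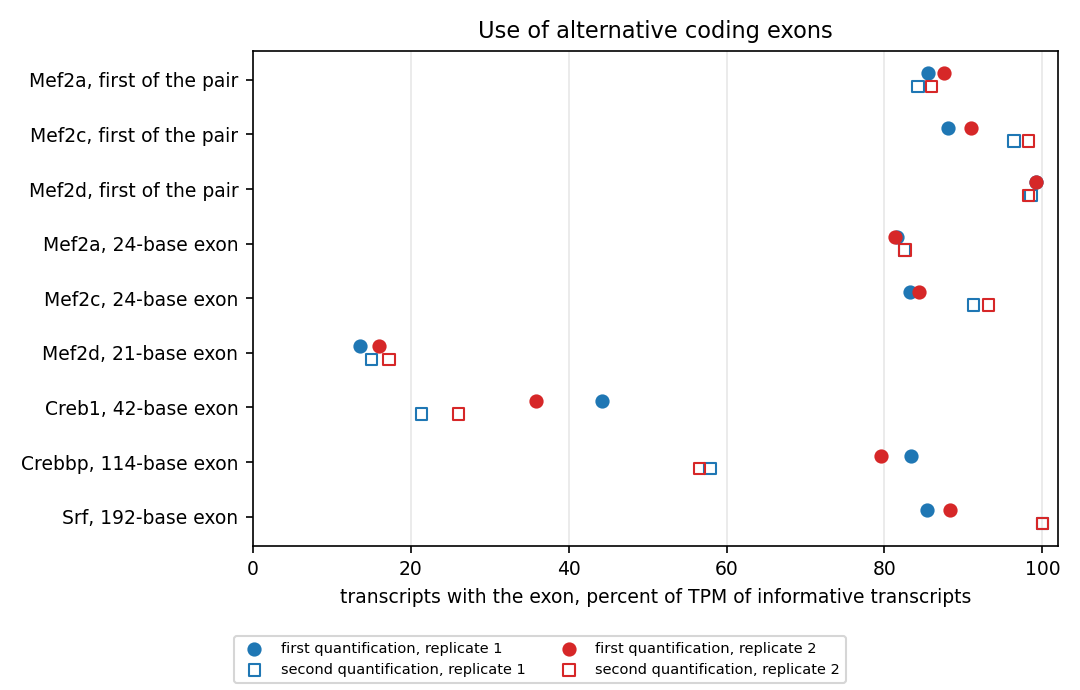
Percent of informative transcript TPM that holds each alternative coding exon named in the text, per gene, with filled circles for the first quantification and open squares for the second (blue, replicate 1; red, replicate 2). Other alternative coding exons of Crebbp and Mef2c are not drawn. The 3 MEF2 genes lie above 80% for the first exon of the pair, and for the beta exon (24 or 21 bases) Mef2d lies between 13.5% and 17.2% while Mef2a and Mef2c lie above 80%. Transcripts that hold neither exon of a pair in full are left out, among them Mef2c-217, which ends within the second exon.

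The annotation holds 100 transcripts of these genes, of which 38 reached 1 TPM in each library. Mef2c had the most annotated transcripts, 31, and Srf the fewest, 4. The leading transcript, the one with the highest mean TPM, took 65.0% ± 3.34 of its gene's TPM in Mef2a (Mef2a-208), 54.2% ± 1.46 in Mef2d (Mef2d-201) and 45.1% ± 1.98 in Mef2c (Mef2c-212). Behind these stood Mef2a-205 at 8.44 TPM, Mef2d-204 at 21.2 TPM and Mef2c-217 at 6.96 TPM on average. Among the others the leading share was 73.6% ± 5.01 for Crtc1-201, 72.8% ± 1.11 for Srf-201, 71.1% ± 7.68 for Crebbp-201 and 40.5% ± 1.03 for Creb1-202. Creb1-209, a transcript with the 42-base exon, followed at 7.52 and 6.10 TPM and was at 0.000158 and 2.77 TPM in the second quantification. The second quantification named the same leading transcript in 8 of the 9 detected genes, where 75.4% of detected protein-coding genes with at least 2 transcripts had the same one. Among coding transcripts alone it was the same in 9 of 9, beside 76.5%. Its leading shares were 49.5% for Mef2a, 50.8% for Mef2d, 36.7% for Mef2c, 79.6% for Crtc1, 79.0% for Srf, 40.9% for Crebbp and 32.6% for Creb1, so the share of Crebbp-201 fell furthest from that of the first.

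The gene with different leading transcripts was Crtc2, and the difference bore on whether any coding RNA was assigned to it. In the first quantification its only annotated protein-coding transcript, Crtc2-201, was listed at 0 TPM in both libraries. Its deposited upper bounds were 1.26 and 1.52 TPM, so a low level is within them. The retained-intron transcript Crtc2-202 led narrowly on the mean, at 3.29 and 3.94 TPM, or 23.9% ± 0.12. Crtc2-208, a target of nonsense-mediated decay (the degradation of mRNA with a premature stop codon), was at 3.41 and 3.73 TPM. It was thus above Crtc2-202 in replicate 1, and the deposited bounds of these transcripts overlapped. The second quantification listed Crtc2-201 at 5.93 and 6.04 TPM, or 35.6% and 25.3% of the gene, ahead of all other transcripts of the gene. A detected protein-coding gene with 0 TPM on coding transcripts was uncommon, at 0.122% of such genes with at least 2 transcripts (0.166% in the second quantification), and a lead by a noncoding transcript was seen in 8.17%. The total level of Crtc2 was 15.1 ± 1.84 TPM in one quantification and 20.3 ± 5.07 TPM in the other, while its coding share was 0% and 30.4%.

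In the other detected genes, and in the first quantification, coding transcripts made up 73.6% to 97.2% of TPM on average, beside a median of 86.2% over all such genes. Mef2d was highest at 97.2% ± 1.11, followed by Crebbp at 96.3% ± 0.11, Mef2c at 95.04% ± 0.089 and Mef2a at 92.6% ± 1.15. The second quantification gave 97.2% for Mef2d and 97.8% for Crebbp, so the order of the highest genes depends on the quantification. Crtc1 had 73.6% on its coding transcript, the lowest after Crtc2 in the first quantification, but in the second its 79.6% lay close to Atf1 at 79.4% and Srf at 79.0%. In the first, Crtc1 had 20.8% ± 2.41 of its TPM on retained-intron transcripts, and Srf had 16.2% ± 3.27 and Creb1 10.6% ± 3.07 there. Retained-intron transcripts took 70.1% ± 0.57 of Crtc2, against 50.3% in the second quantification. In Atf1 the libraries differed more than in any other member, with 65.5% coding TPM in replicate 1 and 94.2% in replicate 2. The leading Atf1-201 was at 3.67 and 4.77 TPM, next came Atf1-202 at 1.65 and 1.72 TPM, and Atf1-206, a target of nonsense-mediated decay, was at 2.73 TPM in replicate 1 and listed at 0 in replicate 2. The second quantification gave the same order of the libraries for Atf1-206, at 4.40 and 0 TPM.

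**Figure D3:**
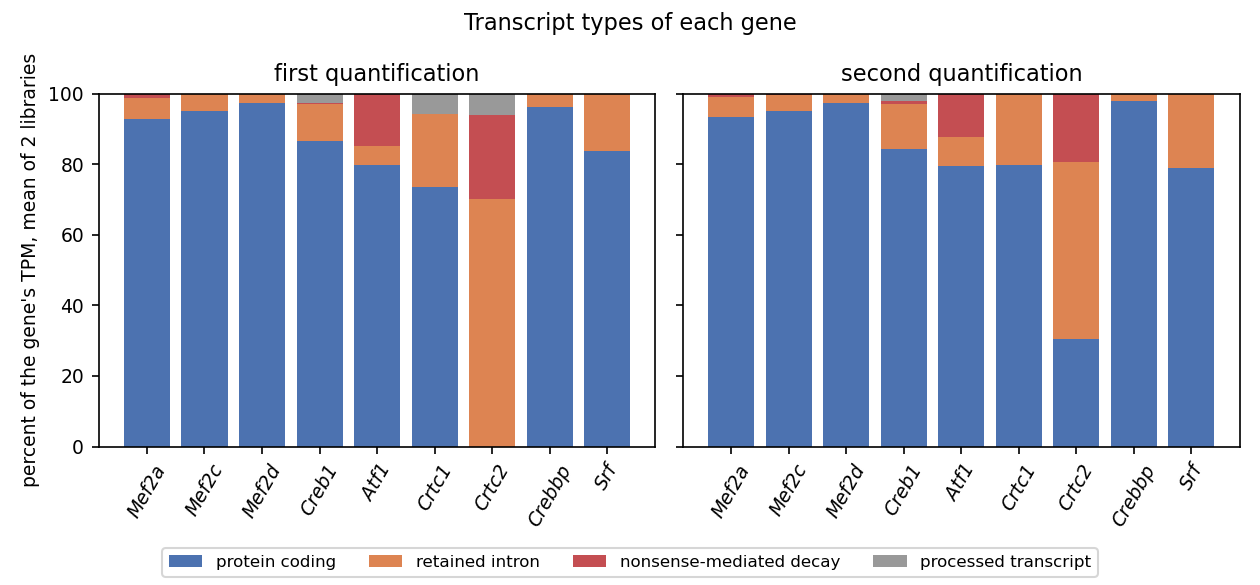
Percent of each detected gene's TPM on transcripts of each annotated type, stacked to 100%, as the mean of the 2 libraries, with the first quantification on the left and the second on the right. Crtc2 has no coding share on the left and 30.4% on the right, while Mef2d, Crebbp, Mef2c and Mef2a are above 90% coding in both. Mef2b, which was not detected, is left out.

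Differences between the libraries were taken as log2 ratios of replicate 2 over replicate 1 of counts scaled by library size, with a 95% exact binomial interval that covers counting error only. They were compared for the 9 genes whose mean count reached 100, which leaves out Mef2b. None of the 9 differed over 2-fold, where 0.466% of 12651 compared genes did (2.88% at a minimum mean count of 10, which also leaves these 9), and all 9 lay within 1.25-fold, as did 93.8% of those genes. Their median was −0.03, beside −0.02 over all compared genes, and 6 of the 9 were lower in replicate 2, beside 55.5%. The members' counts are therefore close to the background in each of these respects.

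Crtc2 had the highest ratio, 0.24 (0.06 to 0.43), from 478 and 538 counts, and stood higher than 93.0% of compared genes. On counts Mef2a had the lowest, −0.15 (−0.20 to −0.09), from 5894 and 5048 counts. Creb1 followed at −0.14 (−0.23 to −0.04), Crtc1 at −0.10 (−0.14 to −0.05) and Mef2d at −0.06 (−0.10 to −0.01). These 5 intervals excluded 0, as did those of 29.7% of compared genes, so libraries of this depth resolved differences of this size without a change in condition. The intervals of Srf (−0.03), Crebbp (−0.01), Mef2c (0.02) and Atf1 (0.06) included 0. The deposited bounds on TPM overlapped between the libraries for all 10 genes and for 91.8% of detected protein-coding genes. Scaling to the spike-in counts shifted every log2 ratio up by 0.26, which put the median of all compared genes at 0.25 and that of the members at 0.24, and then all 9 members were higher in replicate 2, so a direction holds only relative to the other genes. On the deposited TPM the ratio of Atf1 turned from 0.06 to −0.31, the lowest of the 9, that of Crebbp from −0.01 to 0.16, and that of Mef2a was −0.09. Choroid plexus and meningeal markers were higher in replicate 2 and all 4 oligodendrocyte markers lower. All 13 compared markers of neurons, excitatory neurons and GABAergic neurons were also lower, with log2 ratios from −0.38 to −0.06, and under spike-in scaling 12 of the 13 were higher. The part of these cell types in the members' differences was not tested.

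**Figure D4:**
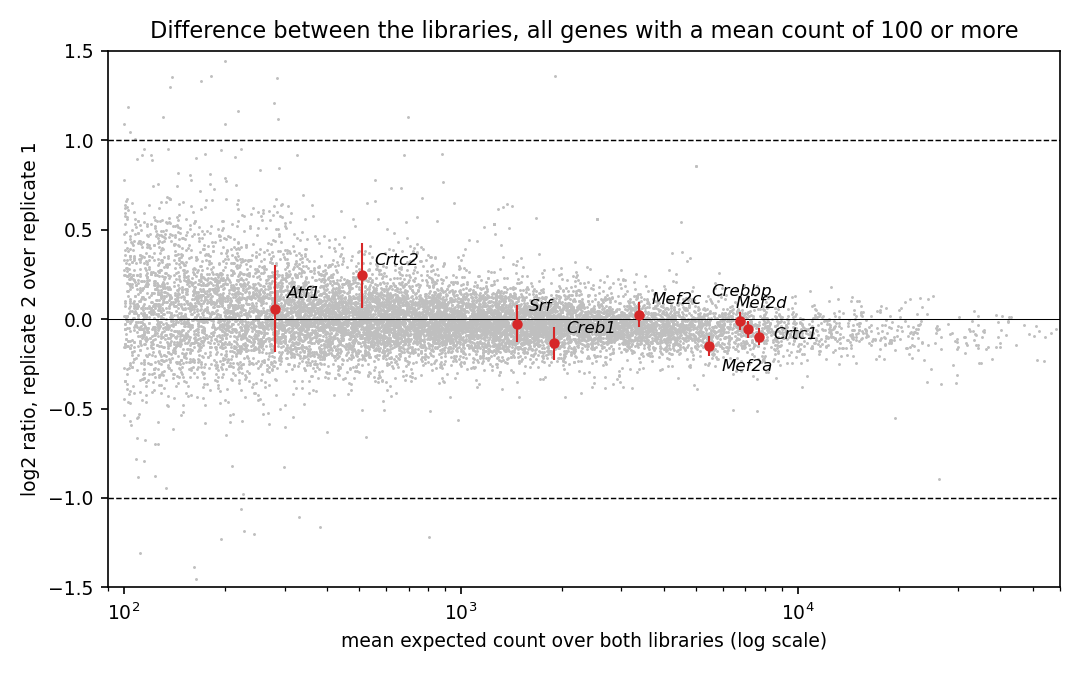
Log2 ratio of replicate 2 over replicate 1 against the mean expected count on a log axis, in grey for genes whose mean count reached 100 and in red for the 9 members with their 95% counting intervals. The members lie between −0.15 and 0.24, inside the dashed lines at 2-fold, and genes beyond the ends of the axes are not drawn.

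Around these genes, 79 genes of the pathways were followed in 7 lists, of which 74 were detected and 1 of the 71 compared was over 2-fold apart. The coregulators of MEF2, 11 genes that include class IIa histone deacetylases, acetyltransferases and kinases, were all detected. Hdac5, a deacetylase that binds and represses MEF2, was the highest at 97.7 ± 5.77 TPM, followed by Cdk5, a kinase that phosphorylates MEF2D, at 49.4 ± 0.60 TPM and Hdac4 at 46.6 ± 1.45 TPM. Their median log2 ratio was 0.04, and 0 of 11 were over 2-fold apart. Hdac5 was above each of the MEF2 genes in mean TPM in the first quantification, but at 106 TPM in the second it was below Mef2d and Mef2a.

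Upstream of CREB, the list of 20 kinases, phosphatases and CRTC regulators was detected in full. The calcineurin subunits Ppp3ca at 513 ± 35.1 TPM and Ppp3r1 at 375 ± 42.5 TPM, which form the calcium-activated phosphatase that acts on CRTC1 and MEF2 proteins, were the highest. Their median log2 ratio was −0.05, with 12 lower and 8 higher in replicate 2 and 0 over 2-fold apart. Of 16 other CREB and ATF family genes 13 were detected, and Atf4 at 38.8 ± 1.30 TPM and Atf6b at 36.0 ± 0.028 TPM, both known from the endoplasmic reticulum stress response, were above Creb1. Atf2 had 54.9 ± 4.90 TPM but shared reads with another gene. None of the 12 compared was over 2-fold apart.

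For SRF, 6 of 7 cofactors were detected, led by Mrtfb at 63.1 ± 1.22 TPM and Mrtfa at 38.6 ± 0.21 TPM, the actin-regulated coactivators, and by the ternary complex factor gene Elk1 at 34.8 ± 2.08 TPM. The 6 compared had a median log2 ratio of 0.04, and 0 were over 2-fold apart. Each of these 3 leading cofactors was above Srf itself in mean TPM.

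Targets of each factor were detected. All 12 CREB targets were detected, with the neuropeptide gene Sst at 174 ± 9.55 TPM, the immediate early gene Junb at 29.46 and 41.81 TPM (log2 ratio 0.51) and the clock gene Per1 at 31.28 and 39.43 TPM (0.22). All 8 MEF2 targets were detected, with Homer1, a postsynaptic scaffold gene, at 91.49 and 67.91 TPM (−0.51), Arc, which drives removal of glutamate receptors from synapses, at 53.1 ± 4.04 TPM and Jun at 46.3 ± 0.76 TPM. Of 13 SRF targets 12 were detected, led by the actin genes Actb at 1317 ± 44.9 TPM and Actg1 at 541 ± 28.1 TPM, which share reads with other genes, and by Arc. The only gene of the 7 lists over 2-fold apart was the SRF target Egr2, an immediate early gene, with 82 and 192 counts, 2.46-fold higher in replicate 2. The median log2 ratios were 0.07 for CREB targets, 0.05 for MEF2 targets and 0.03 for SRF targets. These medians hide differences in both directions. Of the 25 distinct targets compared, 11 lay outside the central 90% of all compared genes (−0.23 to 0.30), 5 above it and 6 below, where 10% of all compared genes lie outside by construction. The CREB targets ranged from −0.34 to 0.69, the MEF2 targets from −0.51 to 0.34 and the SRF targets from −0.26 to 1.30. Of the 46 other pathway genes compared 3 lay outside, and of the 9 members 0.

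Promoter windows of 250 bases before the start were taken from RefSeq (GRCm38.p6) and matched 9 of the 10 genes, with 11 windows because Mef2c has 3. They were searched on both strands for the cyclic AMP response element TGACGTCA, for the shorter core TGACG contained in it, for the CArG box that SRF binds and for the MEF2 element. The full element was in none of the windows, beside 1.55% of 32851 windows in the table. This core was in those of Atf1, 90 bases before the start, and Srf, 201 bases before it, beside 17.8% of windows. The CArG box was found in the Srf window alone, where it occurred 2 times, 82 and 62 bases before the start, beside 1.47% of windows with at least 1. The MEF2 element was in none, beside 2.92%. The Srf window, chr17:46556163-46556412 on the minus strand, is shown because it holds the matches for the family's own protein, with the core and then both CArG boxes in capitals.
Srf promoter: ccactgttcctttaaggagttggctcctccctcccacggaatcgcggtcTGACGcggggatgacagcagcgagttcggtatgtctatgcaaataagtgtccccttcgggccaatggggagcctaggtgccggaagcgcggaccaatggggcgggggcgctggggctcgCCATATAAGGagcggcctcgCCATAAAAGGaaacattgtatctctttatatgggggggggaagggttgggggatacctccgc
The leading transcript Srf-201 begins within 500 bases of this start and took 73.6% and 71.98% of Srf TPM. For Crebbp only Crebbp-205, at 15.3% and 16.9% of Crebbp TPM, begins within 500 bases of the start of its window. The leading Crebbp-201 begins farther upstream, at position 4213997, and the 250 bases before that position were not searched. The 3 Mef2c windows differed in use, since transcripts that begin within 500 bases of the start at position 83573607 took 47.6% and 44.7% of Mef2c TPM, those at 83504034 took 1.10% and 1.89%, and those at 83523656 were at 0. The value of 0 depends on the limit of 500 bases. Mef2c-217, which begins farther downstream at 83524855, took 14.7% and 18.1%, and other Mef2c transcripts above 0 begin near it.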

How the data were processed

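Total RNA from 2 hippocampus libraries of 1 group was analysed from deposited tables on mm10 with annotation M21, per the files' readme. The first tables hold expected counts, TPM, bounds on TPM and the percent of gene TPM that each transcript takes, deposited by the authors from a transcriptome alignment, with column names as RSEM writes. The second hold estimated counts and TPM deposited by the authors from the reads, with column names as kallisto writes. The sources used here do not give the software, its versions or whether strand was used. Reads of overlapping genes can therefore be mixed.

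Gene identifiers were matched to GENCODE release M21 (55536 genes). Numbered entries without a gene name took 4 and 5 counts and were left out. Totals were 32443497 and 30125183 expected counts, and a counting interval covers counting error only. Expected counts were rounded and TMM-scaled (edgeR 4.0.16, R 4.3.3), with a prior count of 0.5 and a minimum mean count of 100. The ratio computation was tested on simulated data. A count was called whole within 0.005. With 1 library on each side of a ratio there is no test and no p-value, so rules of size were used. Second-quantification values were summed per gene. Exons came from the M21 transcript models and sequences (mafft 7.526 for alignment), and promoters from RefSeq (GRCm38.p6). Other steps ran in Python 3.11.15 (pandas 2.3.3, scipy 1.17.1). Size factors of DESeq2 1.42.0, total and spike-in counts, deposited TPM, other minimums, the second quantification and each library alone were alternatives.

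The members, lists and tests were chosen with earlier results of these data known. Named genes are the 10 members and, per list, the 3 with the highest mean TPM and any over 2-fold apart, of which 1 is not reported here. For transcripts they are the first and the next by mean TPM in each member, the lead of the second quantification, and any transcript that sets an exon share. Exons were chosen after the files were seen.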

Additional observations from a re-analysis of the deposited data

How the results depend on the processing

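The number of detected members was 9 at every TPM minimum tried, in the second quantification and in either library alone. No member was over 2-fold apart under any scaling, unit, prior count or fold tried, except that without a filter on counts 1 was, Mef2b, with 3 and 8 counts. The median member log2 ratio was −0.03 and moved to 0.24 with spike-in counts; under the other scalings and units it lay between −0.04 and 0.01. Of the 10 ranks, 6 were the same in the second quantification. The cause of these moves was not tested. Of the single-gene values, levels moved by more than the SD in 19 of 40 alternatives and leading transcript shares in 14 of 35. Exon shares did so in 10 of 52 (alternatives chosen after seeing the data). Either library alone always lies within the SD of 2 libraries, so those alternatives could not move and these totals overstate stability. In the second quantification 9 of 10 levels moved, as did 8 leading shares of 9 detected members and 9 exon shares. With TPM rescaled to protein-coding genes 10 of 10 levels moved. Log2 ratios left their counting interval in 13 of 60. No paired analysis was possible because the design has a single group. Atf1, Crtc2 and Mef2b, with the fewest counts, are the least precise members.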

Other observations

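Several annotated genes overlap the members, and without known strand use their reads may be mixed. Borcs8 overlaps Mef2b on the same strand and was at 18.5 ± 1.29 TPM, from 284 and 301 counts, beside 3 and 8 counts for Mef2b. Lysmd4 lies on the strand opposite to Mef2a and was at 12.4 ± 0.81 TPM. Gm44667 and Gm44668, unspliced models inside Mef2a on its own strand, were at 1.33 ± 0.29 and 0.650 ± 0.20 TPM, and Gm37186, inside Crebbp, was at 0.900 ± 0.14 TPM. 1700113A16Rik, antisense to Mef2d, was at 0.425 ± 0.12 TPM. Gm26904 and Mir6976, which overlap Srf, had 0 counts in both libraries.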
